A study of Mus musculus with 12 samples.

Results

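Jejunal crypts were compared with duodenal crypts of the mouse small intestine by RNA-seq. The comparison rests on 4 of the 12 libraries of the series, chosen by their labels: jejunal crypts, replicates 1 and 2, and duodenal crypts, replicates 1 and 2, set against each other by replicate number. Ileal crypts, also 2 libraries, lent their spread to the test. Organoids and villi of jejunum and duodenum, 1 library each, were used as a description; the organoids were cultures derived from intestine that had been kept for 12 weeks. All libraries were poly(A) RNA of freshly isolated or cultured mouse tissue with no treatment named, and the sources used here do not give strain, age or sex of the mice. The labels do not say that the replicates came from separate animals, so p-values measure only the spread between these samples.

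Crypts are the pockets between the villi in which the intestinal epithelium is renewed. Stem cells at their base give rise to absorptive enterocytes, mucus-secreting goblet cells, hormone-secreting enteroendocrine cells and Paneth cells, which stay at the base and release antimicrobial peptides. The alpha-defensins, called cryptdins in the mouse (symbols Defcr in the files, now Defa), are small cationic peptides of Paneth cell granules that the protease matrilysin, product of Mmp7, cuts to their active form. Duodenum and jejunum follow each other along the gut: the duodenum receives acid, bile and pancreatic juice and takes up much of the iron and calcium, and the jejunum is a main site of nutrient absorption.

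Expression is given as RPKM, the reads of a gene divided by its exon length and by the reads of its library. Of 19012 genes, 11123 had enough reads to be tested. Defcr20, Defcr21 and Defcr22 rose in jejunal crypts, and no gene fell, at an adjusted p under 0.05 in limma with the replicate number as a block. This is 0.027% of the genes tested; 467 genes, or 4.2%, had an unadjusted p under 0.05. Without the block limma called 0 genes, with 126 genes (1.13%) at an unadjusted p under 0.05. With every gene of at least 1 read kept, 0 of 14653 were called. The log2 fold changes of these 3 genes were also taken with 1 of the 6 crypt libraries left out in turn. They lay at 4.86 to 5.83 for Defcr20, 4.797 to 5.66 for Defcr21 and 4.15 to 4.91 for Defcr22. Each such fit leaves 1 library in 1 origin and 1 residual degree of freedom, so its calls are not used. An exact permutation test of 2 libraries against 2 cannot give a two-sided p below 0.333. Besides the calls, genes are therefore described by whether they differed by at least 1 on the log2(RPKM + 1) scale, in 1 direction, in both replicate pairs: 59 genes (0.53%) were higher in this way in jejunal crypts and 23 (0.207%) lower. With TMM scaling of the libraries, that split was 76 higher and 12 lower. The same blocked limma fit to the 4 jejunal and duodenal libraries alone, without the ileal ones, called 28 genes, 23 (0.207%) higher and 5 (0.045%) lower. It leaves 1 residual degree of freedom, so its p-values rest mainly on a spread pooled over genes and little on each gene's own. Its adjusted p is given beside the genes described that passed there and not with the 6 libraries.

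The implied depth was 8721535 and 9253502 reads in jejunal crypts, against 5268480 and 9426733 reads in duodenal crypts, and 48.6% and 60.1% of the reads of jejunal crypts lay in genes, against 44.3% and 65.6% in duodenal crypts. Over all genes tested the median log2 difference was 0.17 in the pair of replicates 1 and -0.28 in the pair of replicates 2. TMM scaling brought these medians to 0.02 and 0.03, and list counts under TMM scaling are given beside the lists described where they changed. Of the 11123 genes, 1775 (16%) were higher and 2512 (22.6%) lower in both pairs by any amount. With TMM scaling 2518 were higher and 2099 lower, and list counts under TMM scaling are set against these. The tissue label held for Paneth cells: lysozyme (Lyz, now Lyz1) had 6035 and 2969 RPKM in jejunal crypts and 3661 and 1031 RPKM in duodenal crypts, against 79.8 RPKM in jejunal villi and 18.6 RPKM in duodenal villi.

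The 3 genes that rose lie on mouse chromosome 8, at chr8:22619727-22620708 (Defcr20, now Defa20), chr8:22165223-22166188 (Defcr21, now Defa21) and chr8:22301955-22302923 (Defcr22, now Defa22), all on the plus strand of mm9. Their promoters are shown because 3 near-identical stretches of sequence precede the genes with the largest jejunal differences. Promoters of other alpha-defensins were not aligned with these 3, so whether the likeness is particular to them was not tested. The stretches are the 250 bases before each start site in RefSeq on the plus strand of build GRCm38.p6: chr8:21509008-21509257 for Defa20, chr8:21025295-21025544 for Defa21 and chr8:21162027-21162276 for Defa22, with all 3 genes matched by current symbol. Capitals mark TATAAA, the TATA box motif, and TCAAAG, which reads CTTTGA on the other strand and is the core motif of the Wnt effectors TCF and LEF.
Defa20: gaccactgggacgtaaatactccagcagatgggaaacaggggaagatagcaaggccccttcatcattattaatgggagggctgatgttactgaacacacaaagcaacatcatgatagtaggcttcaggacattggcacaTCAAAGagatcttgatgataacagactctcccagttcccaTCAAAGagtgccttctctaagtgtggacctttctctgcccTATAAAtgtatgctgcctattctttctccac
Defa21: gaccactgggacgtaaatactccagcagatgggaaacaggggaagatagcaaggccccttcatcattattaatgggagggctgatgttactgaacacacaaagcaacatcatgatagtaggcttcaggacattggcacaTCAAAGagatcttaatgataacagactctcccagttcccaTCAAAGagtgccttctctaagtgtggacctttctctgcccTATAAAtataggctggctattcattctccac
Defa22: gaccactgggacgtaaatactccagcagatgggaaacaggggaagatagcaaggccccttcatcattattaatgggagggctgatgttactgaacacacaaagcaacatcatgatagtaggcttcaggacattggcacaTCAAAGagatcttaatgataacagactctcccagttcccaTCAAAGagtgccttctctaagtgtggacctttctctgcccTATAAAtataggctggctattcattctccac

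The promoters of Defa21 and Defa22 were 100% identical. Defa20 shared 98% of its bases with either of them and differed at G153A, G227A, T230G, C235G and T242A, with the Defa20 base first and positions counted from 1 at the 5′ end of the printed stretch. None of the substitutions fell in a capitalised motif. Each stretch held 1 TATAAA, starting 31 bases before the start site, and 2 TCAAAG, starting 111 and 71 bases before it. On either strand, TATAAA was present in 12.4% and TCAAAG in 13.8% of 32851 RefSeq promoters of this length, and in 15 and 13 of 16 Defa promoters. These matches are letters in a window, and no binding was measured here.

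Defcr20 had the largest log2 fold change of the 11123 genes tested. It had 8167 and 3260.0 RPKM in jejunal crypts, from 30416 and 12881 reads, against 294 and 53.7 RPKM in duodenal crypts, from 661 and 216 reads. The mean was 5714 ± 3470.0 RPKM in jejunal and 174 ± 169.8 RPKM in duodenal crypts (SD, n = 2 each), a ratio of 32.9. The log2 fold change was 5.35 ± 0.41 (SE), with 4.79 and 5.90 in the 2 pairs, and its adjusted p in limma was 0.0252 with the block and 1 without it. In ileal crypts it reached 27651 and 9051 RPKM, so both jejunal values lay above the duodenal and below the ileal ones.

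Defcr21 and Defcr22 had the same pattern at lower levels. Defcr21 had 1760 and 886 RPKM in jejunal crypts against 61.7 and 16.7 RPKM in duodenal crypts, with a log2 fold change of 5.23 ± 0.34 (SE) and an adjusted p of 0.0252 in limma. Defcr22 had 1334 and 643 RPKM in jejunal crypts against 70.9 and 21.5 RPKM in duodenal crypts, with a log2 fold change of 4.53 ± 0.33 (SE) and an adjusted p of 0.0252 in limma; without the block, the adjusted p of both was 1. For all 3 genes the jejunal and duodenal libraries did not overlap, and replicate 1 was the higher one at both origins. Reads of Defcr21 and Defcr22 cannot be assigned with certainty: their GENCODE transcripts were 99.3% identical and 269 of the 369 stretches of 50 bases in Defa21, the read length, also occurred in Defa22. Defa20 shared 0 such stretches with either and 9 with Defa24. Only Defa20, Defa21, Defa22, Defa24, Defa26 and Defa29 were compared, and only for exact matches. Stretches shared with other alpha-defensins were not counted, so reads of Defcr20 are not shown to be unique.

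**Figure D1:**
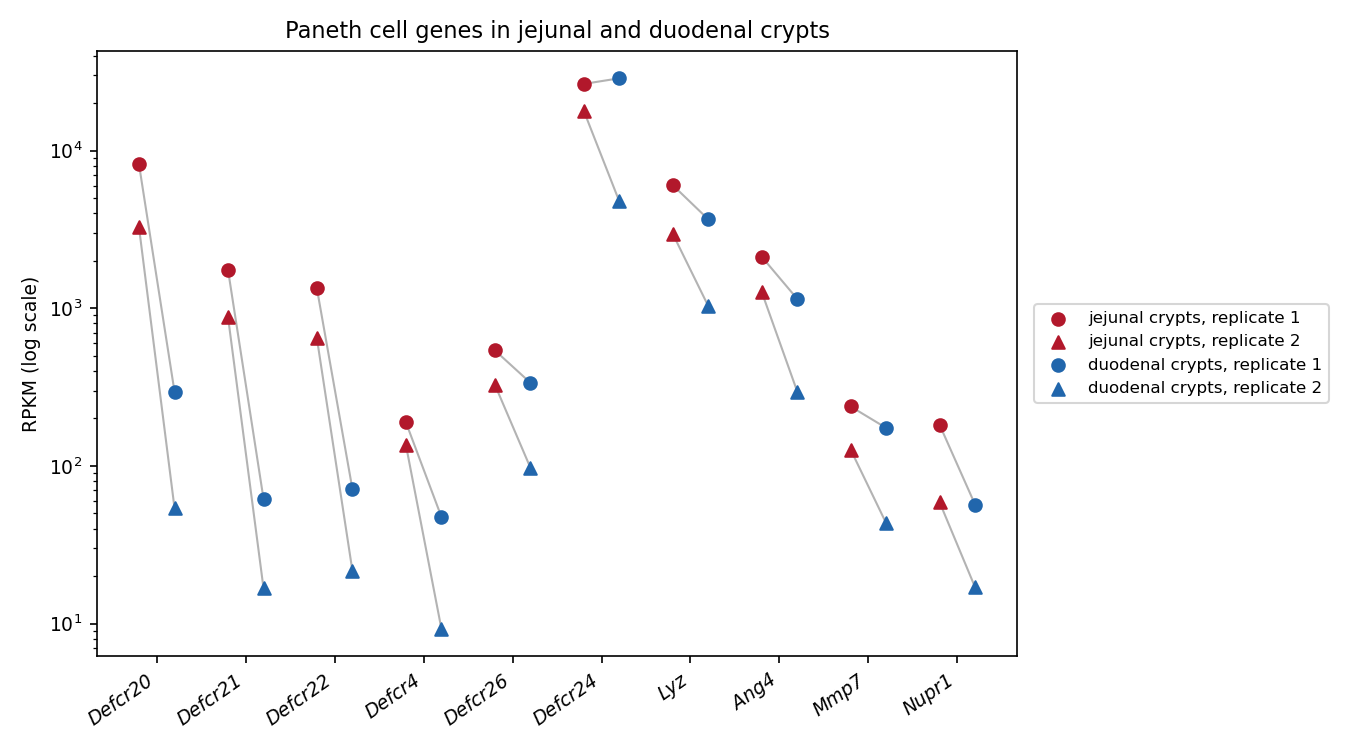
RPKM on a log axis of 10 Paneth cell genes in jejunal crypts (red) and duodenal crypts (blue), circles for replicate 1 and triangles for replicate 2, with grey lines joining libraries of the same number. Defcr20, Defcr21 and Defcr22 drop steeply from jejunal to duodenal crypts in both pairs, while Defcr24 has 26456 RPKM in jejunal and 28733 RPKM in duodenal replicate 1.

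The other alpha-defensins graded down to no steady difference. Of 22 alpha-defensin entries, 11 matched the files, 3 of these (Defcr3, Defcr5 and Defcr23) were listed at 0 in all 4 libraries, and 8 were tested. Among the 8, 3 passed the test and 5 were higher by at least 1 in both pairs, against 0.53% of all genes, with a median log2 fold change of 2.67 against -0.08 over all genes. The 8 and their median count Defcr24 and Defcr6, whose rows are equal, as 2 members. Defcr4 had 189 and 136 RPKM in jejunal crypts against 47.5 and 9.25 RPKM in duodenal crypts, a log2 fold change of 2.86. In limma its adjusted p was 0.38 over the 6 crypt libraries and 3.1e-05 over the 4 alone. Defcr26 had 541 and 328 RPKM in jejunal crypts against 337 and 97.4 RPKM in duodenal crypts, so its libraries overlapped between origins. The most abundant defensin, Defcr24, whose row equals that of Defcr6, had 26456 and 17882 RPKM in jejunal crypts against 28733 and 4756 RPKM in duodenal crypts, with log2 differences of -0.12 and 1.91 in the 2 pairs.

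Paneth cell products outside the defensins differed less between the origins and varied with the replicate. Matrilysin (Mmp7) had 238 and 127 RPKM in jejunal crypts against 174 and 43.3 RPKM in duodenal crypts, and angiogenin 4 (Ang4), an antimicrobial ribonuclease, had 2122 and 1271 RPKM in jejunal crypts against 1146 and 296 RPKM in duodenal crypts. Nupr1, a stress-induced chromatin protein listed with the Paneth cell products, was the member with the largest difference: 182 and 58.9 RPKM in jejunal crypts against 56.7 and 16.9 RPKM in duodenal crypts, with a log2 fold change of 1.70 ± 0.25 (SE) and an adjusted p of 0.38 in limma. Of 13 tested members 0 passed the test, 1 was higher by at least 1 in both pairs, 8 were higher and 1 lower in both pairs by any amount, against 16% and 22.6% of all genes, and the median log2 fold change was 0.91, with 0.25 in the pair of replicates 1 and 1.52 in the pair of replicates 2. With TMM scaling 7 were higher and 0 lower in both pairs, against 2518 and 2099 of 11123 genes, and the pair medians were 0.04 and 1.95. The list sum was 14114 and 9977 RPKM in jejunal crypts and 9338 and 3189.9 RPKM in duodenal crypts, so duodenal replicate 2 held the least Paneth cell RNA. In bulk crypts, fewer Paneth cells and less RNA per cell cannot be told apart.

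Each defensin was also set against lysozyme of the same library. Defcr20 over Lyz was 1.35 and 1.10 in jejunal crypts, against 0.0803 and 0.0520 in duodenal crypts. Defcr21 over Lyz was 0.292 and 0.298 in jejunal crypts, against 0.0169 and 0.0162 in duodenal crypts. The 2 libraries of an origin lay closer together in these ratios than in RPKM, and the log2 differences between origins were 4.08 and 4.40 for Defcr20, 4.11 and 4.20 for Defcr21 and 3.51 and 3.38 for Defcr22. For Defcr4 they were 1.28 and 2.36, and for Defcr26 -0.04 and 0.23. Set against Defcr24 instead, the differences were 4.92 and 4.01 for Defcr20, 4.95 and 3.81 for Defcr21 and 4.35 and 2.99 for Defcr22. For these genes the pairs lay further apart than over lysozyme, and for Defcr4, at 2.12 and 1.97, closer together. Defcr26 over Defcr24 had 0.80 and -0.16. These ratios were chosen after the values were seen and were not tested.

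Among epithelial defence genes other than the defensins, the members differed in direction. Dual oxidase 2 (Duox2), which makes hydrogen peroxide at the epithelial surface, had 3.50 and 1.26 RPKM in jejunal crypts against 0.333 and 0.280 RPKM in duodenal crypts. Its maturation factor Duoxa2 had 5.47 and 6.79 RPKM in jejunal crypts against 0.835 and 1.40 RPKM in duodenal crypts, and the inducible nitric oxide synthase Nos2 had 4.91 and 1.98 RPKM in jejunal crypts against 0.143 and 0.292 RPKM in duodenal crypts. All 3 were higher in each jejunal library than in either duodenal one. The lectin Reg3g, which kills Gram-positive bacteria, had 109.9 and 203 RPKM in jejunal crypts against 29.2 and 108 RPKM in duodenal crypts. Jejunal replicate 1 and duodenal replicate 2 were thus nearly equal in Reg3g. On the other side stood Dmbt1, a secreted scavenger-receptor protein that binds bacteria, with 128 and 186 RPKM in jejunal crypts against 355 and 751 RPKM in duodenal crypts, a log2 fold change of -1.74 (limma, adjusted p = 0.38). Reg1, a secreted lectin named here after its values were seen, had 12.1 and 47.8 RPKM in jejunal crypts against 37.0 and 1005 RPKM in duodenal crypts, and its libraries overlapped. Of 12 tested members of the list, 0 passed the test, 3 were higher and 2 lower by at least 1 in both pairs, against 0.53% and 0.207% of all genes. Over the 4 libraries alone Nos2 passed, with an adjusted p of 0.0096 in limma.

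MHC class II genes, which present peptides to helper T cells and are expressed by epithelium as well as by immune cells, had a higher sum in replicate 1 than in replicate 2 at both origins. H2-Ab1, a class II beta chain, had 65.3 and 8.30 RPKM in jejunal crypts against 10.04 and 3.62 RPKM in duodenal crypts. The invariant chain gene Cd74 had 259.6 and 4.58 RPKM in jejunal crypts against 31.1 and 2.47 RPKM in duodenal crypts, so a jejunal library lay below a duodenal one. The sum of the list was 430.0 and 24.4 RPKM in jejunal crypts against 65.6 and 12.4 RPKM in duodenal crypts. Of 7 tested members 0 passed the test, and 5 were higher and 0 lower in both pairs, against 16% and 22.6% of all genes. Lymphocyte markers summed to 5.64 and 16.2 RPKM in jejunal crypts and 9.68 and 7.64 RPKM in duodenal crypts, and myeloid markers to 59.3 and 36.4 RPKM in jejunal crypts and 63.0 and 19.3 RPKM in duodenal crypts. The part of immune cells in these values was not tested.

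Beyond the defensins, 5 further genes made up the 10 with the largest steady jejunal differences. Osr2, a zinc-finger transcription factor, had the least spread of the 5, with 43.1 and 58.5 RPKM in jejunal crypts against 11.7 and 12.8 RPKM in duodenal crypts and a log2 fold change of 1.96. Ceacam10, a secreted adhesion-family protein, had 31.9 and 18.6 RPKM in jejunal crypts against 0.363 and 5.58 RPKM in duodenal crypts. Gsdmc2, a gasdermin, had 13.9 and 10.6 RPKM in jejunal crypts against 4.39 and 0.766 RPKM in duodenal crypts. The jejunal values of these genes lay above the duodenal ones in every library, as the choice by non-overlap requires. Naaladl1, a brush-border peptidase, had 25.9 and 89.3 RPKM in jejunal crypts against 6.11 and 20.3 RPKM in duodenal crypts. Enpp7, the alkaline sphingomyelinase that digests dietary sphingomyelin, had 5.52 and 45.7 RPKM in jejunal crypts against 0.554 and 3.25 RPKM in duodenal crypts. None of the 5 passed the test over the 6 crypt libraries. Over the 4 libraries alone 4 of them passed in limma, with adjusted p-values of 0.00061 for Ceacam10, 0.0035 for Enpp7, 0.020 for Naaladl1 and 0.026 for Osr2. Enpp7 and Naaladl1 were higher in replicate 2 than in replicate 1 at both origins, as enterocyte genes were.

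**Figure D2:**
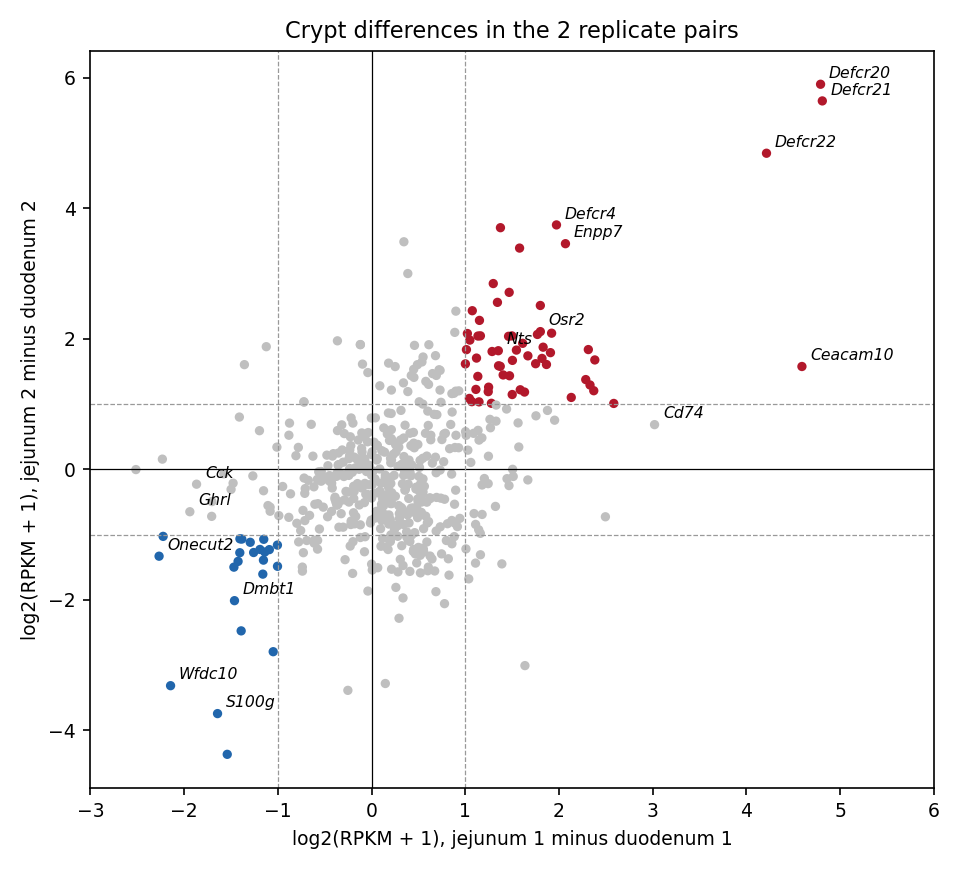
Log2(RPKM + 1) difference, jejunal minus duodenal crypts, of the tested members of the gene lists and the genes named by size, with replicates 1 on the x axis and replicates 2 on the y axis. Red points are at least 1 higher and blue points at least 1 lower in both pairs (dashed lines), grey points are the rest, and Defcr20, Defcr21 and Defcr22 lie apart at the top right.

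On the duodenal side the marker gene was Onecut2, a homeodomain transcription factor of foregut-derived epithelium at chr18:64500017-64558141 in mm9. It had 5.51 and 7.45 RPKM in jejunal crypts against 30.3 and 20.3 RPKM in duodenal crypts, from 643 and 923 reads against 2139 and 2557 reads. The libraries did not overlap, and the log2 fold change was -1.80 (limma, adjusted p = 0.544). In ileal crypts Onecut2 was at 0.125 and 0.0509 RPKM, so its level ran down along the intestine in the order duodenum, jejunum and ileum. S100g, the calcium-binding protein calbindin-D9k of calcium-absorbing cells, had 5.02 and 9.23 RPKM in jejunal crypts against 17.8 and 136 RPKM in duodenal crypts. The whey acidic protein family members Wfdc10 and Wfdc15b belonged to the same side: Wfdc10 had 3.25 and 0.471 RPKM in jejunal crypts, from 13 and 2 reads, against 17.8 and 13.6 RPKM in duodenal crypts, and Wfdc15b had 1.40 and 0.377 RPKM in jejunal crypts against 5.29 and 6.65 RPKM in duodenal crypts.

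Dmbt1 and 5 further genes completed the 10 with the largest steady duodenal differences. Kctd14 had 1.98 and 2.03 RPKM in jejunal crypts against 5.65 and 8.23 RPKM in duodenal crypts. Top1mt, the mitochondrial DNA topoisomerase, had 3.09 and 2.40 RPKM in jejunal crypts against 9.82 and 6.10 RPKM in duodenal crypts, and 5730494M16Rik, now Tpgs2, a subunit of the tubulin polyglutamylase complex, had 3.54 and 4.597 RPKM in jejunal crypts against 10.1 and 11.2 RPKM in duodenal crypts. Rpl35 and Gapdh were also among the 10, with 22.6 and 13.4 RPKM of Rpl35 in jejunal crypts against 64.2 and 39.7 RPKM in duodenal crypts, but both have many processed copies elsewhere in the genome and their values are uncertain. None of the 10 passed the test over the 6 crypt libraries, while S100g and Wfdc10 passed over the 4 alone, with adjusted p-values of 0.00061 and 0.0035 in limma.

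**Figure D3:**
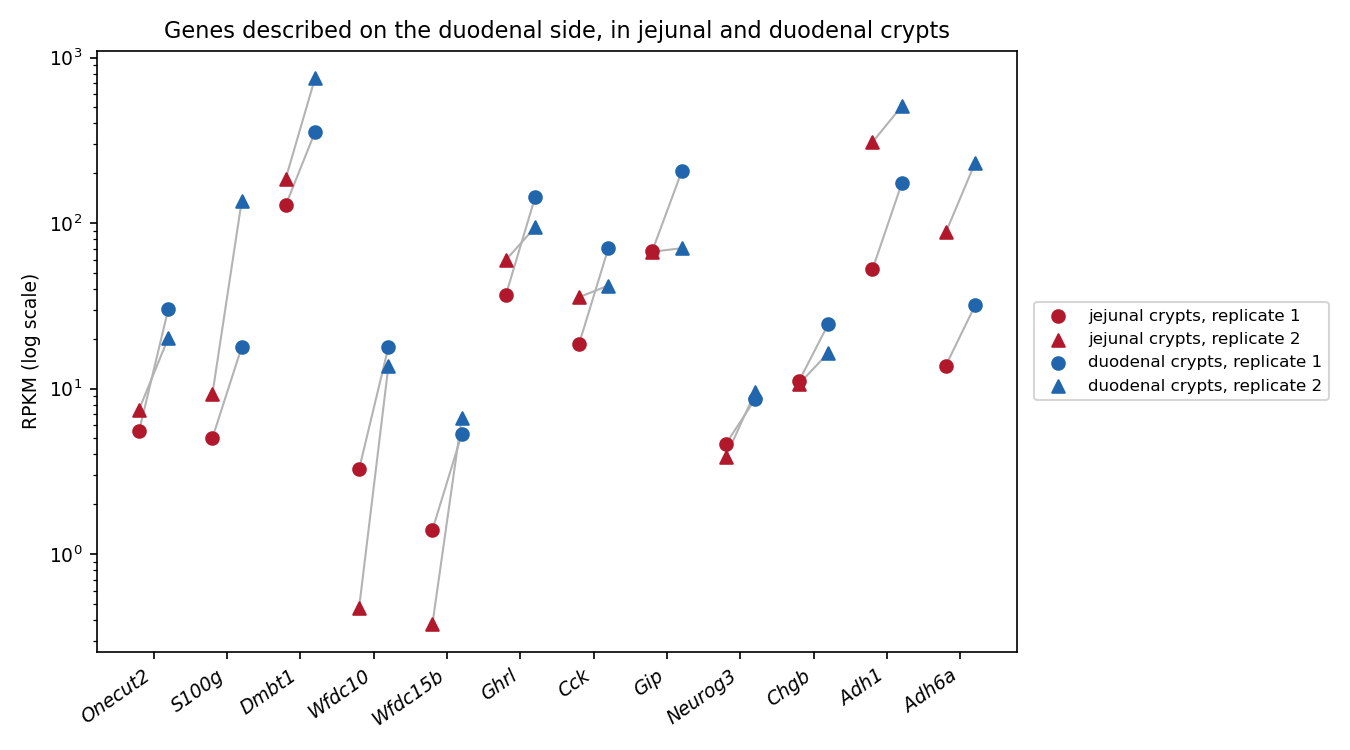
RPKM on a log axis of 12 genes described on the duodenal side, in jejunal crypts (red, left of each pair) and duodenal crypts (blue), circles for replicate 1 and triangles for replicate 2. Onecut2, Dmbt1, Wfdc10 and Wfdc15b have both jejunal libraries below both duodenal ones, while Adh1 and Adh6a overlap between origins and Gip nearly does.

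Other transcription factors of the proximal intestine differed by less than Onecut2 on the log2(RPKM + 1) scale. Gata4, which marks duodenum and jejunum off from ileum, had 35.1 and 81.6 RPKM in jejunal crypts against 39.1 and 95.2 RPKM in duodenal crypts, a log2 fold change of -0.18 ± 0.26 (SE). Meis2, a homeodomain factor, had 0.0399 and 0.452 RPKM in jejunal crypts, from 1 and 12 reads, against 0.529 and 1.74 RPKM in duodenal crypts, from 8 and 47 reads. Its libraries did not overlap, with jejunal replicate 2 close below duodenal replicate 1. The log2 fold change was -0.74, or -1.95 with a pseudocount of 0.1 and -2.34 on recovered reads in limma-voom. Pdx1, a homeobox gene of duodenum and pancreas, had 0 reads in both jejunal libraries, which allows up to 0.267 and 0.252 RPKM at 3 reads, and 0.147 and 6.84 RPKM in duodenal crypts, from 1 and 83 reads. It was too low to be tested. Of 7 tested proximal factors 0 passed the test, and 1 was higher and 4 lower in both pairs, against 16% and 22.6% of all genes. Onecut2 was the member lower by at least 1 in both, against 0.207% of all genes. With a pseudocount of 0.1 there were 2 such members, and with TMM scaling 0. With TMM scaling 3 were lower in both pairs by any amount, against 2099 of 11123 genes. Among distal factors, Hoxb6 had 0.954 and 0.572 RPKM in jejunal crypts against 0.431 and 0.241 RPKM in duodenal crypts, with 17.8 and 21.7 RPKM in ileal crypts. Of the 15 tested distal and Hox factors 6 were higher and 0 lower in both pairs, against 16% and 22.6% of all genes. With TMM scaling 5 were higher, against 2518 of 11123 genes. Within this list Osr2 alone was higher by at least 1 in both pairs.

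The 2 duodenal libraries themselves differed in genes of the most proximal gut. The trefoil peptide gene Tff2, expressed in stomach and in the duodenal Brunner glands, had 1.004 and 0.189 RPKM in jejunal crypts against 0.997 and 23.2 RPKM in duodenal crypts. The iron exporter ferroportin (Slc40a1) had 0.543 and 0.639 RPKM in jejunal crypts against 0.393 and 14.9 RPKM in duodenal crypts. Together with Pdx1 and Reg1, these genes were high in duodenal replicate 2 only, and duodenal replicate 1 was close to the jejunal libraries. Brunner gland and gastric markers summed to 33.7 and 10.2 RPKM in jejunal crypts and to 47.5 and 119 RPKM in duodenal crypts, and their part in the duodenal values was not tested. Of that list, the pepsinogen gene Pgc had 0.828 and 1.48 RPKM in jejunal crypts against 7.54 and 4.06 RPKM in duodenal crypts, and 1190003M12Rik, now the gastrokine Gkn3, had 28.8 and 6.13 RPKM in jejunal crypts against 34.5 and 73.6 RPKM in duodenal crypts.

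Hormone genes of enteroendocrine cells were described next, since these cells differ in kind along the gut. Ghrelin (Ghrl), a hunger hormone, had 36.6 and 59.7 RPKM in jejunal crypts against 143 and 94.2 RPKM in duodenal crypts. Cholecystokinin (Cck), which empties the gall bladder, had 18.6 and 35.6 RPKM in jejunal crypts against 70.7 and 41.9 RPKM in duodenal crypts. Both had their jejunal libraries below their duodenal ones in RPKM. Their log2 fold changes of -1.29 and -1.05 missed the threshold (limma, adjusted p = 0.938 and 1). TMM scaling multiplied the RPKM of jejunal replicate 2 by 1.04 and of duodenal replicate 2 by 0.77. On that scale Cck was higher in jejunal than in duodenal replicate 2, while Ghrl kept its order. Without duodenal replicate 1 the log2 fold changes of Ghrl and Cck became -0.75 and -0.27, and without duodenal replicate 2 they became -1.84 and -1.82. Without jejunal replicate 1 they became -0.87 and -0.59. The incretin gene Gip had 68.2 and 67.1 RPKM in jejunal crypts against 205 and 70.4 RPKM in duodenal crypts, so that its difference rested on duodenal replicate 1. Neurotensin (Nts), a hormone of the distal small intestine, had 1.55 and 2.84 RPKM in jejunal crypts, from 16 and 31 reads, against 0 and 0.0899 RPKM in duodenal crypts, from 0 and 1 reads. A count of 0 allows up to 0.483 RPKM in that duodenal library at 3 reads. Of 11 tested hormone genes 0 passed the test, and 3 were higher and 4 lower in both pairs, against 16% and 22.6% of all genes. With TMM scaling 3 were higher and 1 lower, against 2518 and 2099 of 11123 genes. Over the 4 libraries alone Nts passed, with an adjusted p of 0.0045 in limma.

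Factors that build enteroendocrine cells and proteins of their hormone granules, taken as 1 list, were lower in jejunal crypts more often than higher. Neurog3, the factor that commits progenitors to the endocrine fate, had 4.62 and 3.86 RPKM in jejunal crypts against 8.63 and 9.51 RPKM in duodenal crypts. Its target Neurod1 had 0.368 and 0.520 RPKM in jejunal crypts against 1.52 and 1.53 RPKM in duodenal crypts, and Chgb, a protein of hormone granules, had 11.1 and 10.7 RPKM in jejunal crypts against 24.7 and 16.5 RPKM in duodenal crypts. Of 15 tested members 8 were lower in both pairs and 2 higher, against 22.6% and 16% of all genes, and 0 passed the test. With TMM scaling 5 were lower and 3 higher, against 2099 and 2518 of 11123 genes.

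More genes of absorptive enterocytes were higher than lower in jejunal crypts within the pairs, and these genes differed still more between the replicates. Keratin 20 (Krt20), a marker of differentiated enterocytes, had 45.0 and 363 RPKM in jejunal crypts against 11.6 and 118 RPKM in duodenal crypts. The log2 fold change was 1.74 ± 0.27 (SE) with an adjusted p of 0.38 in limma, yet duodenal replicate 2 lay above jejunal replicate 1. Apoa1, the main protein of high-density lipoprotein, had 959 and 12239 RPKM in jejunal crypts against 280 and 2922 RPKM in duodenal crypts. Of 19 tested enterocyte genes, Apoa1 among them, 0 passed the test, 6 were higher by at least 1 in both pairs (5 with TMM scaling) and 0 lower, against 0.53% and 0.207% of all genes, with a median log2 fold change of 0.75. Between replicates 2 and 1 the median difference of these genes was 3.22 in jejunal and 3.24 in duodenal crypts, with replicate 2 the higher one. How much villus tissue each preparation held was not measured, and its part in these differences was not tested.

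Of the lists, peptide digestion and amino acid transport held the largest number of genes at least 1 higher in both pairs. Of 22 tested members 8 were higher by at least 1 in both pairs, against 0.53% of all genes, and the median log2 fold change was 0.85. By any amount 18 were higher and 2 lower in both pairs, against 16% and 22.6% of all genes. With TMM scaling 17 were higher and 1 lower, against 2518 and 2099 of 11123 genes. The peptide transporter PEPT1 (Slc15a1) had 3.60 and 55.8 RPKM in jejunal crypts against 0.669 and 12.8 RPKM in duodenal crypts. The brush-border peptidase genes Ace and Mep1b had the same layout, with 17.6 and 147 RPKM of Ace in jejunal crypts against 5.71 and 53.7 RPKM in duodenal crypts, and 19.6 and 144 RPKM of Mep1b in jejunal crypts against 5.65 and 62.9 RPKM in duodenal crypts. No member passed the test. The list summed to 351 and 2118 RPKM in jejunal crypts and 155 and 905 RPKM in duodenal crypts, and the enterocyte list moved with it, at 2669 and 31080.5 RPKM in jejunal crypts and 1396.5 and 13248 RPKM in duodenal crypts. The part of enterocyte content in the peptide genes was not tested.

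Fat and bile acid genes followed, and carbohydrate genes were mixed. Of 25 fat absorption genes 16 were higher and 1 lower in both pairs, against 16% and 22.6% of all genes, and the median log2 fold change was 0.58. The fatty acid carrier Fabp2 had 512 and 6016 RPKM in jejunal crypts against 199.5 and 2003 RPKM in duodenal crypts. Ostb, now Slc51b, a subunit of the basolateral bile acid exporter, had 23.3 and 151 RPKM in jejunal crypts against 8.95 and 42.4 RPKM in duodenal crypts. Both had their replicates 2 highest at either origin. Lactase (Lct) had 8.63 and 108 RPKM in jejunal crypts against 2.40 and 48.3 RPKM in duodenal crypts, whereas sucrase-isomaltase (2010204N08Rik, now Sis) had 4.73 and 50.3 RPKM in jejunal crypts against 8.25 and 108 RPKM in duodenal crypts. Of 12 carbohydrate genes 4 were higher and 4 lower in both pairs, against 16% and 22.6% of all genes. With TMM scaling 6 were higher and 4 lower, against 2518 and 2099 of 11123 genes. The alcohol dehydrogenase and retinoid list had no common direction, with a median log2 fold change of -0.13. Of its 16 tested members 5 were higher and 4 lower in both pairs, against 16% and 22.6% of all genes. With TMM scaling the list had 4 higher and 4 lower. Its alcohol dehydrogenases Adh1 and Adh6a were lower in both pairs: Adh1 had 52.5 and 308 RPKM in jejunal crypts against 174 and 508 RPKM in duodenal crypts, and Adh6a had 13.8 and 87.7 RPKM in jejunal crypts against 31.8 and 232 RPKM in duodenal crypts.

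**Figure D4:**
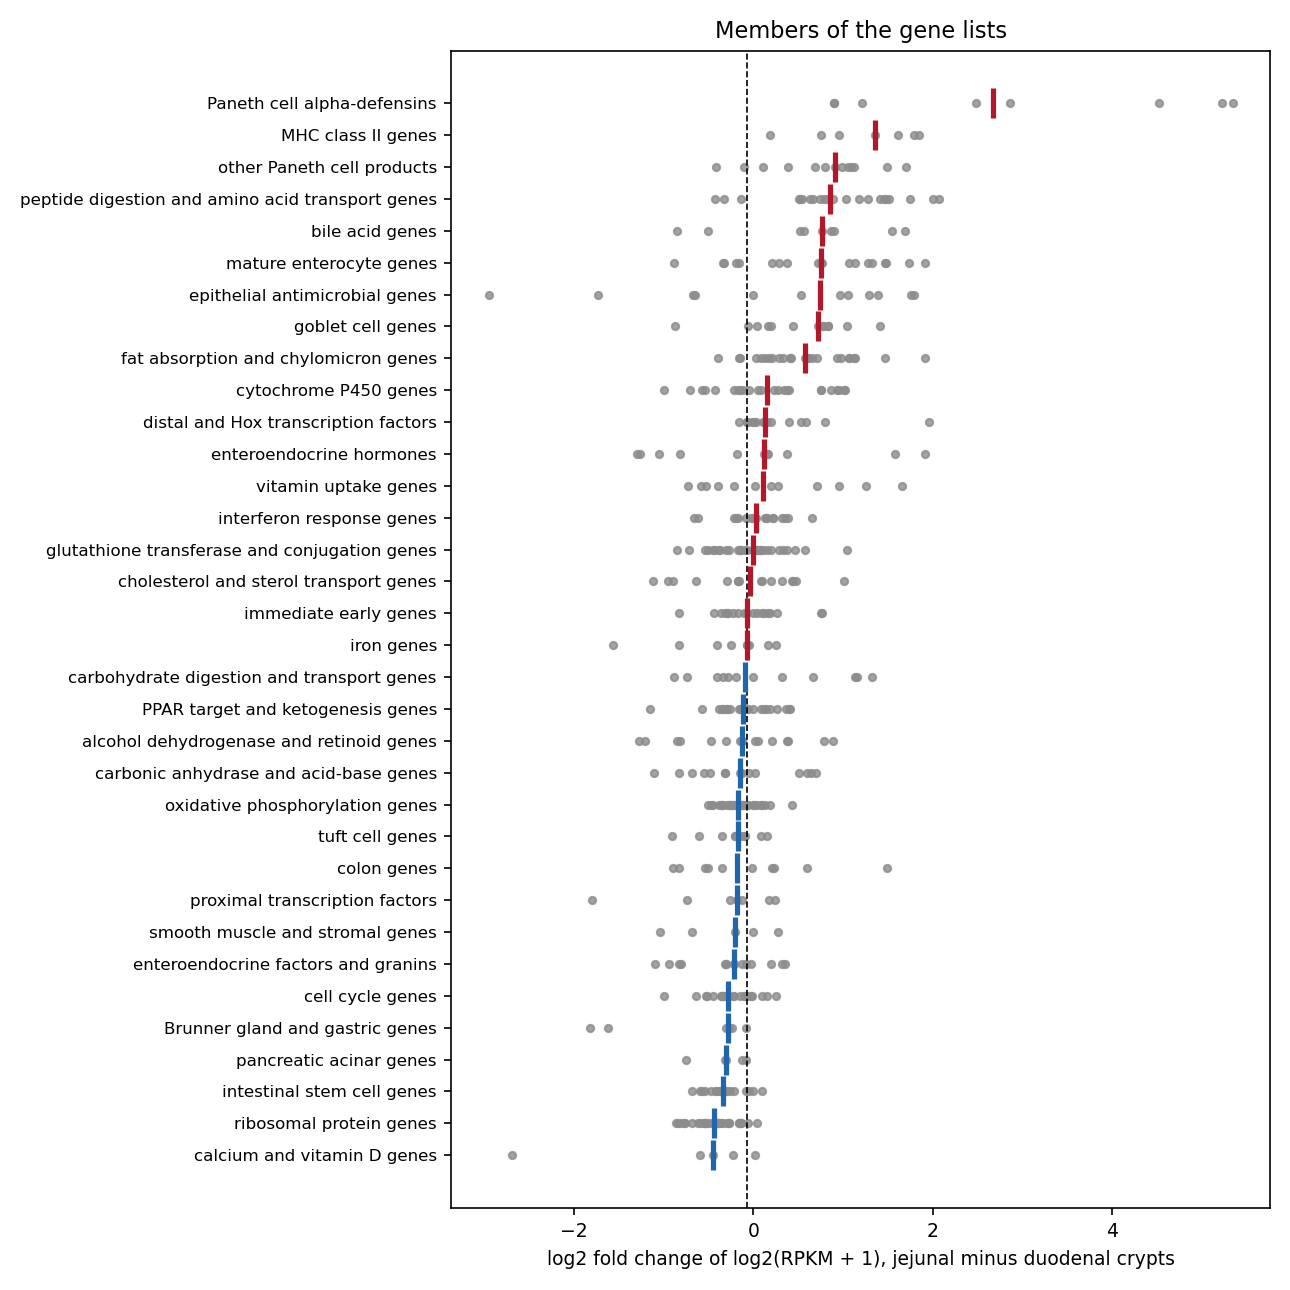
Log2 fold change, jejunal minus duodenal crypts, of each tested member (grey points) of the lists with at least 5 tested members; thick bars are list medians, red above and blue below the median of all genes (dashed line, -0.08). Alpha-defensins have the highest median, 2.67, and MHC class II genes follow at 1.35.

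Goblet cell genes had more members on the jejunal side, and stem and dividing cell genes had opposite signs in the 2 pairs. Guca2a, the gut hormone guanylin, had 586 and 1014 RPKM in jejunal crypts against 269 and 311 RPKM in duodenal crypts. Spink4, a secreted protease inhibitor, had 6228 and 3609 RPKM in jejunal crypts against 3341 and 1574 RPKM in duodenal crypts. Of 13 tested goblet cell genes 9 were higher and 1 lower in both pairs, against 16% and 22.6% of all genes, and 0 passed the test. With TMM scaling 8 were higher and 1 lower, against 2518 and 2099 of 11123 genes. The stem cell receptor gene Lgr5 had 9.39 and 1.77 RPKM in jejunal crypts against 6.37 and 2.90 RPKM in duodenal crypts. Of 19 stem cell genes 0 were higher and 5 lower in both pairs, the lower share being near the 22.6% of all genes. With TMM scaling 6 were lower, against 2099 of 11123 genes. The medians of the stem cell genes were 0.28 in the pair of replicates 1 and -0.70 in the pair of replicates 2. All genes had 0.17 and -0.28 there. With TMM scaling the stem cell medians were 0.07 and -0.30, against 0.02 and 0.03 for all genes. For 25 cell cycle genes the medians were 0.43 and -1.03, or 0.22 and -0.62 with TMM scaling. Of the cell cycle genes 1 was higher and 0 lower in both pairs, against 16% and 22.6% of all genes. With TMM scaling 1 was higher and 6 lower, against 2518 and 2099 of 11123 genes.

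Ribosomal protein genes leaned to the duodenal side, with 20 of 32 tested members lower in both pairs, against 22.6% of all genes. Their median log2 fold change was -0.43. With TMM scaling 25 members were lower, against 2099 of 11123 genes. Rps2, of the small subunit, had 199.9 and 230.2 RPKM in jejunal crypts against 247 and 426 RPKM in duodenal crypts, and 0 members passed the test. Processed copies of these genes make their values uncertain. Markers of other tissues were low: smooth muscle and stromal markers summed to 3.29 and 4.10 RPKM in jejunal crypts and 16.6 and 3.95 RPKM in duodenal crypts, and pancreatic acinar markers to 65.7 and 57.2 RPKM in jejunal crypts and 119 and 45.9 RPKM in duodenal crypts. Erythroid markers summed to at most 2.22 RPKM in each of the 4 libraries.

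Organoids and villi gave a second look at the same genes outside fresh crypts, with 1 library per origin and so no test of their own. Defcr20 had 2977 RPKM in jejunal organoids against 355 RPKM in duodenal organoids, and 67.9 RPKM in jejunal villi against 3.58 RPKM in duodenal villi. Lysozyme, also a Paneth cell product, was likewise higher in jejunal than in duodenal villi, at the values given above. The part of crypt tissue in the villus values was not tested. Osr2 had 25.2 RPKM in jejunal organoids against 0.054 RPKM in duodenal organoids, and 46.8 RPKM in jejunal villi against 20.2 RPKM in duodenal villi. Onecut2 had 6.73 RPKM in jejunal organoids against 9.91 RPKM in duodenal organoids, and 1.29 RPKM in jejunal villi against 7.75 RPKM in duodenal villi. The duodenal library of Onecut2 was thus the higher one in both tissues. S100g had 692 RPKM in jejunal organoids against 1378 RPKM in duodenal organoids, and 5.69 RPKM in jejunal villi against 152 RPKM in duodenal villi.

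Of the 59 genes higher by at least 1 in both crypt pairs, 26 were also higher by at least 1 in jejunal than in duodenal organoids, where 5.88% of all genes were, and 21 in villi, where 2.71% were. Their median log2 difference was 0.83 in organoids and 0.59 in villi. Of the 23 genes lower in both crypt pairs, 10 were lower by at least 1 in organoids, where 4.81% of all genes were, and 6 in villi, where 0.935% were, with medians of -0.96 and -0.18. The difference between the jejunum-duodenum effect of organoids or villi and that of crypts was tested in limma over all 12 libraries, in which single libraries are assumed to vary like crypt libraries. It was called for 0 of 12740 genes in either tissue with or without the block; an unadjusted p under 0.05 was found for 947 genes (7.43%) in organoids and 482 (3.78%) in villi with the block, and for 530 (4.16%) and 236 (1.85%) without it.

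**Figure D5:**
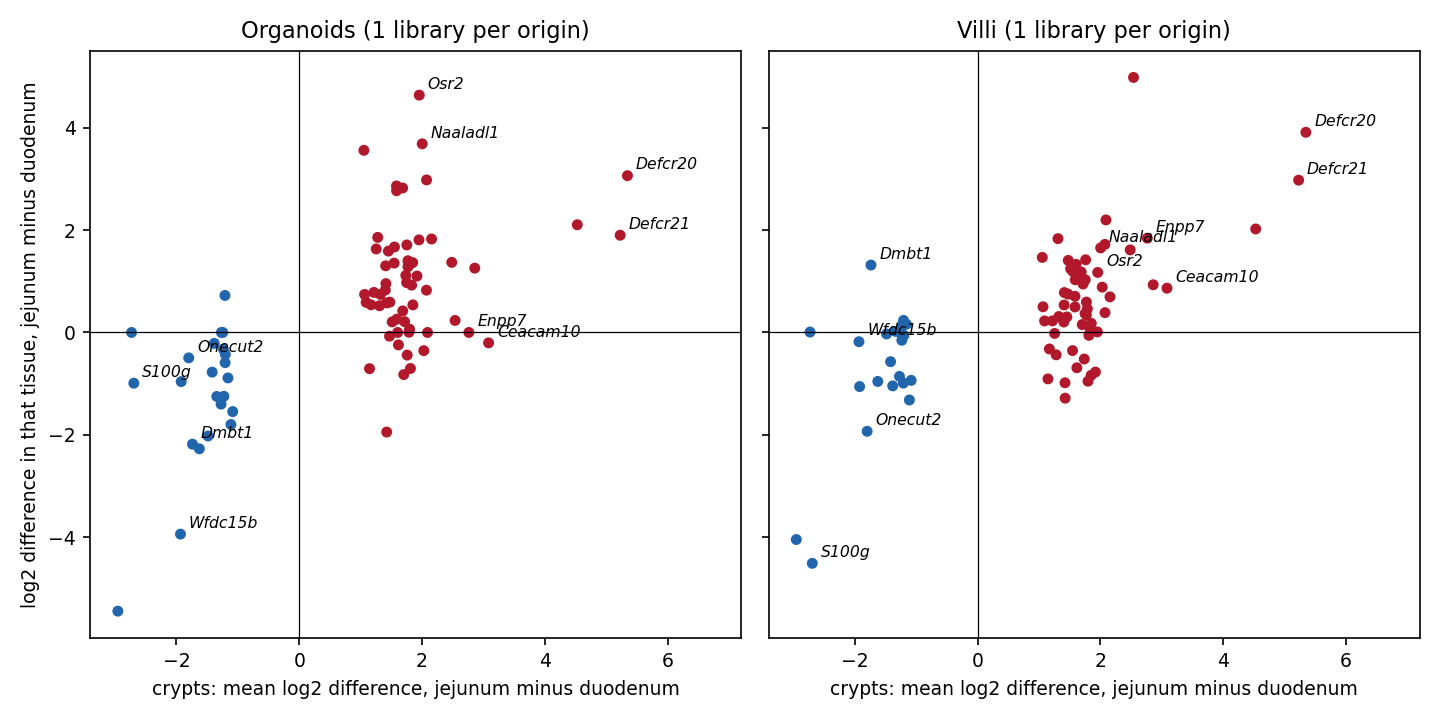
Log2(RPKM + 1) difference between jejunum and duodenum in organoids (left) and villi (right) on the y axis against the mean difference in crypts on the x axis, for the 59 genes higher (red) and 23 genes lower (blue) by at least 1 in both crypt pairs. Defcr20, Defcr21, Osr2 and Naaladl1 lie above 0 in both tissues, and Dmbt1 lies below 0 in organoids and above 0, at 1.32, in villi.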

How the data were processed

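RNA was isolated with Trizol LS and selected for poly(A), and SOLiD Total RNA-Seq libraries were read at a length of 50 bases on a SOLiD 4, per the labels' protocols. BWA, a read aligner, and the mouse build mm9 are named in the submitters' processing notes. The sources used here do not give the gene models, the counting rule or its use of strand, so reads of paralogs, overlapping and antisense genes are uncertain. The deposited values are RPKM per transcript, per the file headers. The plan allowed for counts, but RPKM call for a test on the log scale. Gene coordinates are those of mm9 in the files; the sources do not say whether they start at 0 or 1.

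For each of 19012 symbols the row of greatest exon length was kept, out of 21247 rows. Reads recovered from RPKM and exon length were whole within 0.02 for at least 99.95% of the values of each library. Tested genes reached 10 reads, rescaled to median depth, in 2 or more crypt libraries and 15 reads in all. Log2(RPKM + 1) of the 6 crypt libraries was fitted in limma 3.58.1 (R 4.3.3) with a mean-variance trend, origin and replicate number, leaving 2 residual degrees of freedom; the pseudocount understates changes of low genes. P-values were two-sided. They were adjusted by Benjamini-Hochberg over 11123 genes, threshold 0.05. The fit was tested on simulated data without a replicate effect, a setting unlike these libraries, in which same-numbered libraries shifted together.

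Crypt libraries carry the numbers 1 and 2 in their labels. Deviations of same-numbered libraries from their origin's mean had a Pearson r across genes of 0.42 (duodenum and jejunum), 0.51 (duodenum and ileum) and 0.79 (jejunum and ileum), all above 0.1, so the numbers were used as pairs. What a number stands for is not stated.

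Members and the 37 gene lists (711 of 731 entries matched) were chosen with earlier results of these data known. Named genes are those called; the 10 largest differences per direction among genes at least 1 apart in both pairs, not overlapping and at 5 RPKM or more in the higher group; up to 4 members per list by p; and a fixed set of positional, hormone and transport genes. Current symbols and promoters are from RefSeq (GRCm38.p6) and transcripts from GENCODE. Motifs were searched on both strands. The values of 1 list member are not reported here.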

Additional observations from a re-analysis of the deposited data

Results flagged for a closer look

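Dmbt1 ran in opposite directions in crypts and villi: both jejunal crypt libraries were below both duodenal ones, with a log2 fold change of -1.74, while villi had 16.3 RPKM in jejunum against 5.93 RPKM in duodenum, a log2 difference of 1.32. In organoids it had 48.5 RPKM in jejunum against 224 RPKM in duodenum. It stands out because every library of one tissue moved one way and the library of the other tissue the opposite way. The limma test of the difference of 3.05 between villi and crypts gave an adjusted p of 0.99, with 1 villus library per origin.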

How the results depend on the processing

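The 3 defensins were called again with pseudocounts of 0.1 and 0.5, a filter of 1 RPKM, TMM scaling, limma without trend, limma-voom on recovered reads with the block, and the transcript with the highest mean RPKM; quantile normalisation called 2, with Defcr20 at an adjusted p of 0.0806. Without the replicate block, which ignores the pairing, limma called 0 genes, and limma-voom on recovered reads, an alternative chosen after seeing the data, also called 0 without it (100 genes at an unadjusted p under 0.05). Without a filter beyond 1 read 0 of 14653 genes were called, with 631 at an unadjusted p under 0.05. The 4 jejunal and duodenal libraries alone gave 28 calls, among them Defcr4, Ceacam10, Enpp7, Naaladl1, Osr2, Nts, Nos2, S100g and Wfdc10. Leaving out 1 library gave 5 to 983 calls, with the 3 defensins among them each time. The count was 983 (198 higher, 785 lower) without duodenal replicate 1, 40 without duodenal replicate 2, 8 and 5 without jejunal replicate 1 or 2, and 24 and 37 without ileal replicate 1 or 2. The cause was not tested.

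Without duodenal replicate 2 the log2 fold change of Gata6 became 0.25, of Fabp6 -0.016 and of Slc40a1 0.027, the opposite of their sign with all libraries; over the libraries left out in turn they lay at -0.78 to 0.25, -0.016 to 3.40 and -3.16 to 0.027. The median of mature enterocyte genes was 0.55 to 0.79 with 1 pair left out, and that of peptide digestion genes 0.88 to 1.07, and 1.03 with a pseudocount of 0.1 and 1.02 with TMM scaling. The planned count models of edgeR and DESeq2 were not run, since the files hold RPKM. The precision is limited by 2 libraries per origin and, for low genes, by depths of 5268480 to 9426733 reads.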
